A study of Mus musculus with 6 samples.

Results

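Solitary Zfp genes are the mouse genes named Zfp and a number that have no other such gene starting within 100 kb on the same chromosome. The rule takes symbol and position on GRCm38 and no expression value, and its genes make up 189 of the 411 Zfp genes, while the other 222 lie in clusters, and 43432 genes were listed in all. Zfp553, which the study discusses, lies 11.2 kb from another Zfp gene and is not a member. Their RNA was measured by poly(A) RNA-seq in primary cortical neurons of WT C57BL/6 mouse embryos at E16.5, with males and females pooled. The neurons were kept in culture for 7 days, and from day 6 all dishes received 1 µM tetrodotoxin, which blocks sodium channels, and 100 µM DL-AP5, which blocks NMDA receptors, overnight. KCl at 55 mM was then added to depolarize the cells for 2 h or 6 h, or harvest came at 0 h, with 2 libraries per time. Thus the 0 h libraries are silenced neurons. The question was how the RNA of this set of genes moved during early and late neuronal activation.

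C2H2 zinc finger proteins hold a zinc ion between paired cysteines and histidines and read DNA, and some read RNA, through rows of such fingers. Many carry a KRAB domain, which recruits the co-repressor Trim28 (KAP1) and with it the histone methyltransferase Setdb1, a route best known for silencing transposable elements. Mouse KRAB zinc finger genes arose largely by tandem duplication and sit in clusters, whereas older zinc finger genes with roles in development, transcription or RNA metabolism tend to stand alone. The Zfp prefix names a protein motif rather than a family of common descent, and it also covers the CCCH proteins of the Zfp36 group, which bind mRNA.

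Of the 189 solitary genes, 179 are annotated as protein coding. A profile search of the encoded proteins found a KRAB box in 63, 116 had none, and 10 had no annotated protein. The median number of C2H2 finger patterns was 11 in proteins with a KRAB match and 5 in those without, and the highest was 36, in Zfp142. A total of 15 coding members had no C2H2 pattern, among them the 4 genes of the Zfp36 group, Zfp36, Zfp36l1, Zfp36l2 and Zfp36l3. A pair of CCCH patterns was found in these 4 and in Zfp330, 5 members in all. The members lie on 20 chromosomes, with 20 on chromosome 2, and the median distance to the nearest other Zfp start was 1700 kb. Just outside the 100 kb limit, Zfp263 starts 103.2 kb from Zfp174, and Zfp120 and Zfp937 start 103.7 kb from each other. Just inside it, Zfp965 and Zfp968 start 97.5 kb apart and Zfp846 starts 86.2 kb from Zfp266.

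A count was seen in 175 members, and 14 had none in any library. A mean normalised count of at least 10, taken over all 6 libraries, was reached by 160. Normalised counts are expected counts divided by the library's size factor. In these 160 the median level at 0 h was 13.6 TPM, a unit per length, against 16.9 TPM in all genes of the same depth and 9.2 TPM in the clustered Zfp genes. The highest level at 0 h was that of Zfp207, a spindle and splicing protein, at 149 and 143 TPM, followed by Zfp706 at 129 and 124, Zfp46 at 91.7 and 90.1, Zfp532 at 74.8 and 77.7 and Zfp57 at 70.6 and 74. The libraries of neighbours in this order did not overlap, and the nearest pair was Zfp532 and Zfp57. Some 31 members had expected counts that were not whole, so that reads were shared with other genes, and 43 overlapped another expressed gene. Values of such members are uncertain.

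The 250 bases before the RefSeq start are printed for Zfp39, Zfp518a, Zfp113 and Zfp184. The first 3 had the deepest falls at 2 h among members whose mean normalised count reached 100, and Zfp184 had the largest rise within that limit. Whether the changes arise from this DNA was not tested. They run 5′ to 3′ on the strand of the gene, from RefSeq on GRCm38.p6. Capitals mark the CCAAT box (CCAAT) and a core of ETS factor sites (CCGGAAG), searched on both strands, and the cAMP response element (TGACGTCA) was searched in the same way.
Zfp39: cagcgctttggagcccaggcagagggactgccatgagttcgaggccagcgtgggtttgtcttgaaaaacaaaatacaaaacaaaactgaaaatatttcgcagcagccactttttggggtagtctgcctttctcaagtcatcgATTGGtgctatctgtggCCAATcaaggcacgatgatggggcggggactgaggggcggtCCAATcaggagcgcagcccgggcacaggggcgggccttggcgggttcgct
Zfp518a: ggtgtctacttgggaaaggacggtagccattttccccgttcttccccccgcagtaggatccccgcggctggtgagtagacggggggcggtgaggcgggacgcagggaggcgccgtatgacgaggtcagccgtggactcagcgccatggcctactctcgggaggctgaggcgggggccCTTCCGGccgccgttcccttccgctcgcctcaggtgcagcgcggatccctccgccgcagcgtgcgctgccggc
Zfp113: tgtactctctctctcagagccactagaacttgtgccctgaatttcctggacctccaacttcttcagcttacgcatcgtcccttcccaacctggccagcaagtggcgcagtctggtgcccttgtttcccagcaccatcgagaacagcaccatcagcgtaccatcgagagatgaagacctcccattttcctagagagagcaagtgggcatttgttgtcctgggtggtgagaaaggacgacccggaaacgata
Zfp184: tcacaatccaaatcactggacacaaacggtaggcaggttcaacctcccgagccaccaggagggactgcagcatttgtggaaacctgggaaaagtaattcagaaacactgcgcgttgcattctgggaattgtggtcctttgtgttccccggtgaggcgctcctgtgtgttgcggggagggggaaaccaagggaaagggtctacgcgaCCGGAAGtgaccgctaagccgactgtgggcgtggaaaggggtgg
These windows are chr11:58904226-58904475 on the minus strand for Zfp39, chr19:40894455-40894704 on the plus strand for Zfp518a, chr5:138155745-138155994 on the minus strand for Zfp113 and chr13:21944844-21945093 on the plus strand for Zfp184. Zfp39 holds 3 CCAAT boxes, Zfp518a and Zfp184 hold 1 ETS core each, and Zfp113 holds no match to these letters. Promoter windows of 300 bases were found by symbol for 142 members, with 192 windows. The ETS core was in 24% of these windows and in 8.86% of all 32851 windows of the table, and the CCAAT box in 42.7% and 37.4%. The cAMP response element was in 3.12% of member windows and 1.79% of all windows. The AP-1 site TGANTCA was in 3.12% and 7.81%, and the CArG box of serum response elements in 1.04% and 1.63%. Among windows of members that fell at 2 h, 27.9% held the ETS core and 48.5% a CCAAT box, against 21.7% and 38.7% of the windows of the other members with a mean count of at least 10. A match is a description of the sequence, and these shares were not tested.

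Library totals lay between 25959298 and 28573067 expected counts, with 18767 to 19212 genes detected. The activity genes Fos, Npas4 and Bdnf rose at 2 h in both replicates, by 7.71 ± 0.21, 7.64 ± 0.22 and 4.03 ± 0.22 (log2 ± SE). Summed levels of 10 neuronal markers were 3875 and 3940 TPM at 0 h, lowest at 2 h with 3307 and 3488, and 3686 and 3838 at 6 h. The low sum at 2 h went with Tubb3, whose mean went from 1659 to 911 TPM (log2 fold change −0.69). The other neuronal markers had log2 fold changes between 0.13 and 0.62 at 2 h, and the median of the list was 0.42. None of them was called at 2 h. At 6 h against 0 h Tubb3 was called lower (−1.01) and Gad1 and Gad2 higher (1.41 and 1.36). The summed levels of 7 astrocyte markers were 591.1 and 632.1 TPM at 0 h and 456.8 and 474.3 at 6 h, with no marker called, and those of 7 oligodendrocyte lineage markers were also lowest at 2 h, with 96.2 and 113.6 TPM, while the 0 h libraries had 125.7 and 149.4 and the 6 h libraries 122.6 and 133.3, with Sox10 called lower at 2 h (−2.61). The sums of 7 progenitor markers lay between 130.9 and 150.6 TPM, with Hes5 called lower (−1.81) and Nes higher (1.08) at 6 h against 0 h. Microglial and vascular markers summed to at most 4.6 and 3.2 TPM. The part of these other cells in the changes below was not tested, and in bulk RNA fewer cells of a type and less RNA per cell cannot be told apart.

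After 2 h of KCl, solitary Zfp genes were mostly lower. Of 167 tested, 56 were down-regulated and 3 up-regulated, by an adjusted p of at most 0.05 and more than a 2-fold change in DESeq2. That is 33.5% and 1.8% of the members, against 5.94% and 3.62% of all genes tested. Over the 160 better-counted members the median log2 fold change was −0.60 (quartiles −1.28 and −0.10), against 0.01 in all genes of that depth. In 104 of these 160 both 2 h libraries lay below both 0 h libraries, and in 24 both lay above, which is 65% and 15%, against 32.6% and 32.3% of all genes of that depth. Of the Zfp genes in clusters, 119 of 217 were down-regulated (54.8%), with a median of −1.23. The difference between solitary and clustered genes was not tested.

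The deepest fall at 2 h to pass the test was that of Zfp39 (ENSMUSG00000037001, chr11:58888153-58904225), a KRAB zinc finger gene with 12 finger patterns. Normalised counts of 464 and 485 before KCl dropped to 47.9 and 34.1 at 2 h and stood at 198 and 176 at 6 h. The 3 times did not overlap, and the log2 fold change at 2 h was −3.53 ± 0.26 (SE, adjusted p = 6.1e-41). Zfp518a, which has no KRAB match, fell from 448 and 303 to 55.9 and 22.7, a log2 fold change of −3.25 ± 0.39. The KRAB gene Zfp113 (chr5:138139702-138155744) went from 739 and 686 to 103 and 65.1 and stayed at 122 and 139 at 6 h. Its log2 fold changes against 0 h were −3.08 ± 0.25 and −2.45 ± 0.24. Zfp113 thus stayed low over the time measured.

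Zfp507, without a KRAB match, had 935 and 941 normalised counts in silenced neurons, 125 and 159 at 2 h and 487 and 503 at 6 h. Zfp160, a KRAB gene, had 785 and 514, then 145 and 69.3, then 539 and 545, so that its 6 h libraries lay between its 0 h libraries. Zfp202, also with KRAB, had 374 and 419, then 77.9 and 75.5, then 251 and 299. The log2 fold changes of these 3 at 2 h were −2.72 ± 0.18, −2.60 ± 0.34 and −2.37 ± 0.23, and those of Zfp11 and Zfp937 were −2.45 ± 0.29 and −2.38 ± 0.35. Each of these 8 genes, the lowest with a mean count of 100 or more, also passed a test against a 2-fold change at 2 h. Below that limit, Zfp691 went from 34.6 and 46.3 normalised counts to 3.99 and 4.14, a log2 fold change of −3.32 ± 0.75, and Zfp930 and Zfp839 stood at −2.84 ± 0.37 and −2.72 ± 0.37. All of the 56 down-regulated members had both 2 h libraries below both 0 h libraries. They were called on these same libraries, so this is largely set by the call and adds no support.

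**Figure D1:**
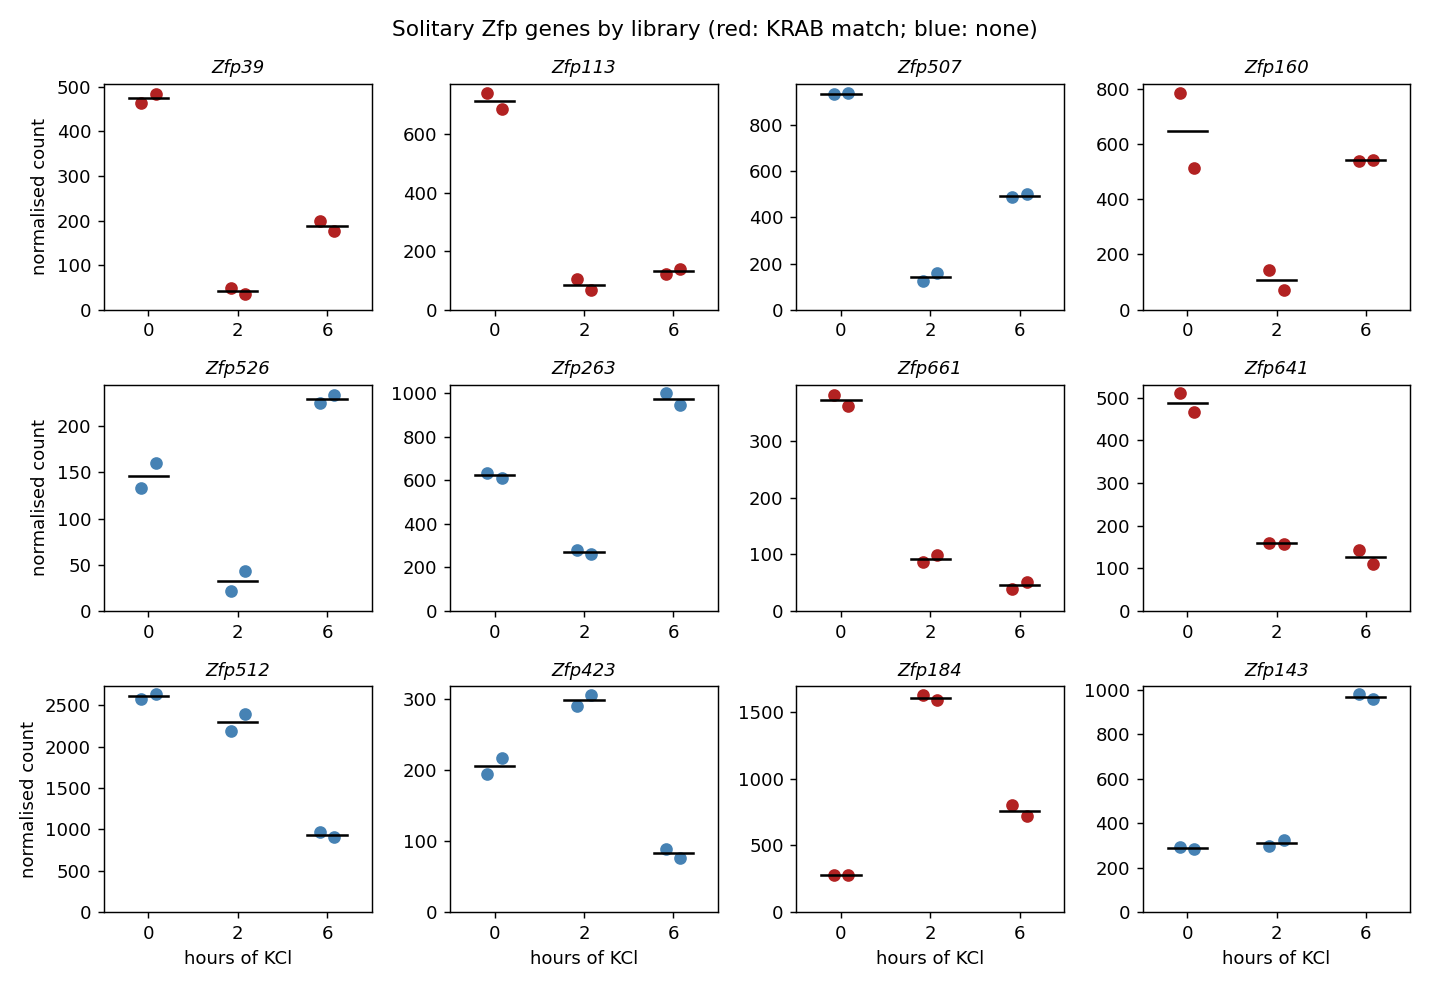
Normalised counts (y axes, from 0) of 12 solitary Zfp genes against hours of KCl; each point is a library and each bar the mean of 2, red with a KRAB match and blue without. Zfp39 to Zfp263 were lowest at 2 h, Zfp661 and Zfp641 were low at both times, Zfp512 and Zfp423 fell at 6 h, Zfp184 peaked at 2 h and Zfp143 rose at 6 h.

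Between 2 h and 6 h the set moved up again. Of 165 members tested, 55 (33.3%) were up-regulated and 9 (5.45%) down-regulated, against 10.1% and 8.02% of all genes, with a median log2 fold change of 0.72. A fall at 2 h followed by a rise at 6 h, each passing the test, was seen in 40 members, which is 24.2% of those tested in both comparisons against 3.21% of all genes. Because the 2 h libraries enter both comparisons, the values of the members are given side by side here and no correlation is read from them. At 6 h 37 of the 40 were no longer called different from 0 h, and Zfp39, Zfp518a and Zfp839 were still down-regulated. Among all genes it was 479 of the 527 that fell and then rose. A missing call does not mean a return to the 0 h level. Zfp507 and Zfp157 were at −0.92 ± 0.16 and −0.87 ± 0.26 at 6 h against 0 h, and Zfp263 and Zfp385b at 0.65 ± 0.14 and 0.96 ± 0.20. The call of Zfp518a at 6 h was lost without 0 h replicate 1 or either 6 h library. A fit without 1 library leaves a single library at that time, which is assumed here and below to vary like those of the other times. At 6 h against 0 h, 20 of 167 members (12%) were down-regulated and 10 (5.99%) up-regulated, against 10.2% and 9.1% of all genes, and the median was 0.05. The split at 6 h moved with the scaling, in the members and in all genes. By library totals 28 members (16.7%) were lower and 7 (4.17%) higher, against 14.5% and 5.83% of all genes. With a correction for GC content it was 19 (11.4%) and 15 (8.98%), against 8.84% and 10.5%.

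The largest rise from 2 h to 6 h was that of Zfp526, from 22 and 43.4 to 225 and 234 normalised counts, above its 133 and 160 at 0 h. Its log2 fold change was 2.82 ± 0.35. Zfp292, a large zinc finger gene linked to neurodevelopmental disorders, had 2678 and 2106, then 1331 and 597, then 5069 and 4816, a rise of 2.36 ± 0.47. Its fall at 2 h, −1.31 ± 0.47, lost its call when any library but 2 h replicate 1 was left out. Zfp263, next to the distance limit, had 632 and 612, then 281 and 263, then 1000 and 945, with log2 fold changes of −1.19 ± 0.15 and 1.84 ± 0.15. Zfp120 and Zfp937, also just outside the limit, fell at 2 h and rose to 6 h as well. Of the clustered genes just inside it, Zfp965 and Zfp968 stood at −0.20 ± 0.36 and −0.15 ± 0.33 at 2 h. Zfp846 and Zfp560 stood at −0.61 ± 0.19 and −0.88 ± 0.21.

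**Figure D2:**
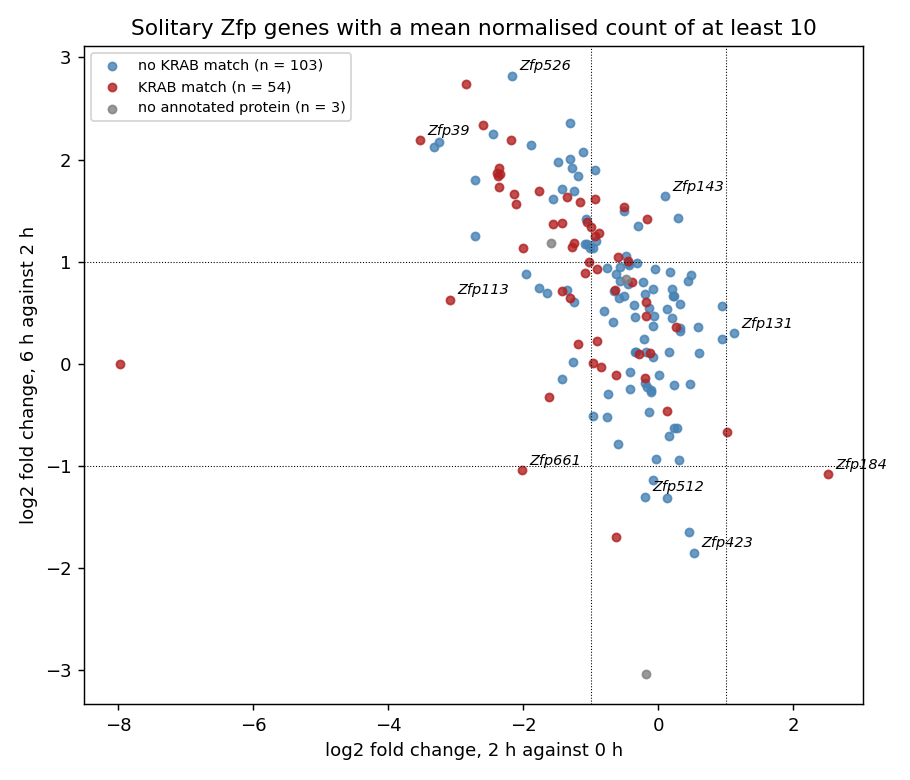
Log2 fold change from 0 h to 2 h (x axis) against that from 2 h to 6 h (y axis) for the 160 members with a mean normalised count of at least 10, by KRAB match; dotted lines mark 2-fold. Most points lie at the upper left, Zfp184 lies at the lower right, and the point farthest left is Zfp781, which had counts in 1 library only and was not called.

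A few members took other courses. Zfp661, a KRAB gene, fell at each step, with 382 and 362 normalised counts, then 86.9 and 98.2, then 38.5 and 51.6. Its log2 fold change at 6 h was −3.05 ± 0.27, while its step from 2 h to 6 h, −1.04 ± 0.29, lost its call without 2 h replicate 2 (−0.93) or without 6 h replicate 1 (−0.84). Zfp113, Zfp41, Zfp641, Zfp775 and Zfp827 were down-regulated at both times with no called change in between. The call of Zfp41 at 6 h, −1.02 ± 0.16, lay at the threshold and was lost without 0 h replicate 1 or 6 h replicate 1, and that of Zfp775 at 2 h was lost without 0 h replicate 1. Zfp641 went from 510 and 466 to 159 and 158 and then to 143 and 111.

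Another 11 members were down-regulated at 6 h against 0 h without a call at 2 h. Of these, 7 were also down-regulated from 2 h to 6 h. Among all members tested, 12% were down-regulated at 6 h against 0 h, against 10.2% of all genes. From 2 h to 6 h it was 5.45%, against 8.02%. Zfp512 had 2578 and 2639 normalised counts before KCl, 2190 and 2391 at 2 h and 963 and 902 at 6 h, a log2 fold change of −1.48 ± 0.12 at 6 h. Zfp697 and Zfp467 stood at −1.47 ± 0.17 and −1.38 ± 0.23 at 6 h. Both were already lower at 2 h, at −0.96 ± 0.16 and −0.60 ± 0.22, short of 2-fold. Zfp523 and Zfp414 fell at 6 h by 1.19 and 1.21 on the log2 scale, and with a correction for GC content they were at −0.95 and −0.96, short of 2-fold. Zfp414 had non-whole counts in all 6 libraries and overlaps another gene on the same strand, so its values are uncertain.

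Only 3 members passed as up-regulated at 2 h. Zfp184 (chr13:21945094-21960779), a KRAB gene with 18 finger patterns, went from 279 and 280 normalised counts to 1623 and 1587 at 2 h and 801 and 721 at 6 h. Its log2 fold change was 2.52 ± 0.14 at 2 h (adjusted p = 9e-72), and it fell by 1.08 ± 0.13 from 2 h to 6 h. Zfp131, a BTB domain protein, rose from 745 and 856 to 2129 and 1386 and then to 2281 and 2044. Its value at 2 h, 1.13 ± 0.22, was 0.78 without 2 h replicate 1 and 0.96 with scaling by library totals. Zfp957 had no count in either 0 h library and 14 and 7.24 normalised counts at 2 h, too few for a fold change.

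Members were then divided by KRAB match. At 2 h 28 of 56 KRAB members (50%) were down-regulated, with a median of −1.06, and 27 of 107 coding members without KRAB (25.2%), with a median of −0.34, against 5.94% of all genes. In clusters the values were 104 of 174 (59.8%) with a median of −1.43 for KRAB genes and 13 of 37 (35.1%) with a median of −0.76 for the others. KRAB genes not named Zfp gave 25 of 71 (35.2%) and a median of −0.89. From 2 h to 6 h, 27 of 56 solitary KRAB members (48.2%) and 28 of 105 without KRAB (26.7%) were up-regulated, against 10.1% of all genes. These differences between lists are counts and were not tested.

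**Figure D3:**
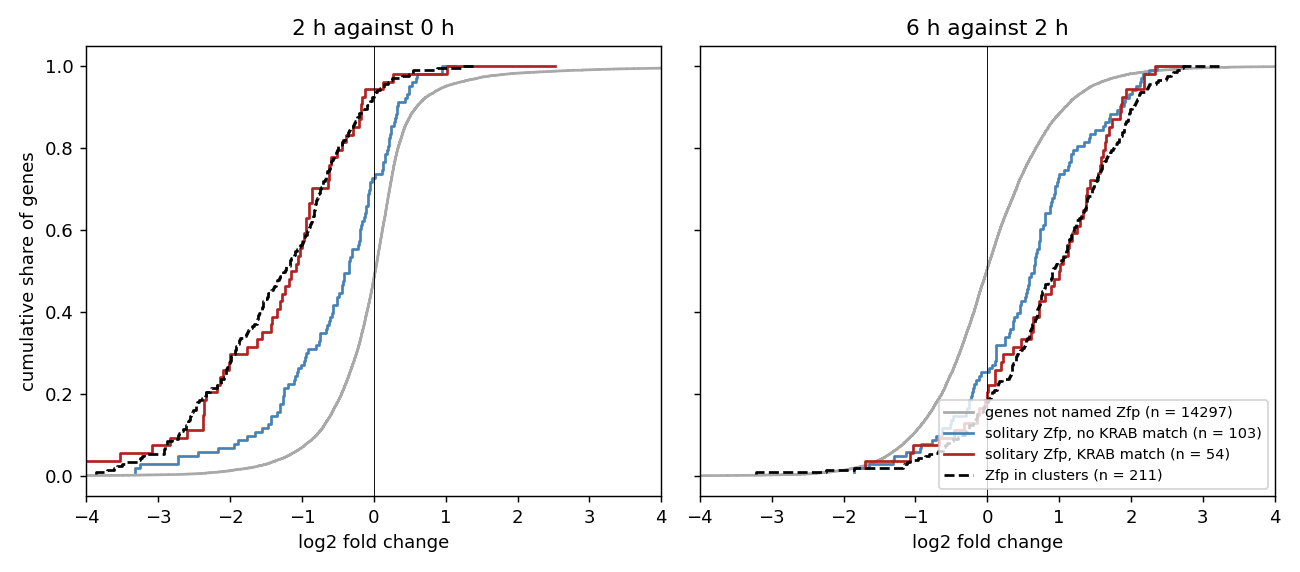
Cumulative share of genes (y axis) against log2 fold change (x axis) at 2 h against 0 h and at 6 h against 2 h, for genes with a mean normalised count of at least 10. At 2 h the medians run from −1.23 in clusters through −1.06 and −0.34 in solitary genes with and without KRAB to 0.02 in genes not named Zfp, and at 6 h against 2 h all 3 Zfp curves lie to the right.

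GC content moved with the KRAB match and with the replicates. The median GC content of transcripts was 43.7% in KRAB members and 50.8% in coding members without KRAB. Over the 147 members whose mean count reached 50, the log2 ratio of the 2 h replicates had a Spearman correlation of −0.84 with GC content across genes, and 24 members differed more than 2-fold between these replicates. None did so at 0 h or 6 h, where the correlations were −0.70 and −0.40. Zfp37, a KRAB gene of 43.3% GC, had 256 and 81.7 normalised counts at 2 h. Genes are not independent replicates, and these correlations are descriptions.

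Without 2 h replicate 1, 68 members (42.5%) were down-regulated at 2 h, against 7.33% of all genes, and without 2 h replicate 2 it was 44 (27.5%), against 5.91%. With counts corrected for GC content it was 51 (30.5%), against 5.37%, of which 25 had KRAB and 25 were coding genes without. Below the member median of 47.3% GC, 22 of 41 KRAB members and 9 of 37 without KRAB were down-regulated. At or above it the counts were 6 of 13 and 18 of 66. The shares down-regulated, with and without KRAB, were thus 53.7% and 24.3% in the lower GC range and 46.2% and 27.3% in the upper, against 8.57% and 5.9% of all genes in these ranges with a mean count of 10 or more. GC content and KRAB match cannot be fully told apart at these numbers.

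**Figure D4:**
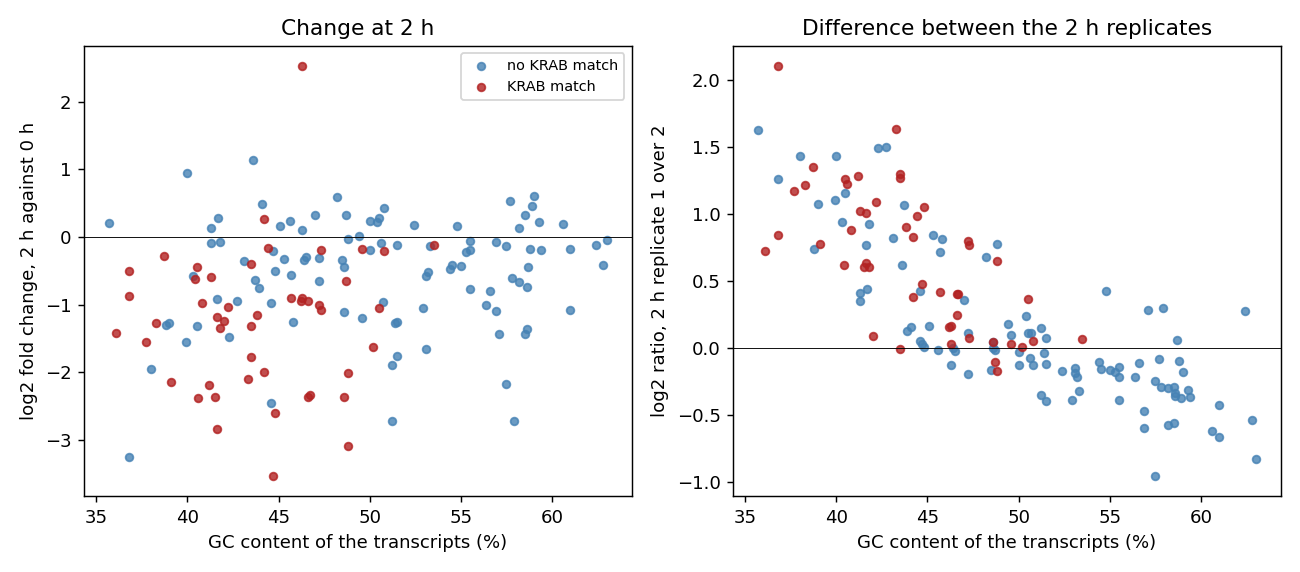
Log2 fold change at 2 h (left) and log2 ratio of 2 h replicate 1 over replicate 2 (right) against the GC content of transcripts in percent, for the 147 members whose mean count reached 50. The left panel shows falls at every GC content, and the right panel shows a ratio that declines as GC content rises, with a Spearman correlation of −0.84.

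The members down-regulated at 2 h had a median of 10 finger patterns and those not called had 6. Among members without KRAB the Spearman correlation of finger number with the log2 fold change at 2 h was −0.30 (n = 103), and among those with KRAB it was −0.02 (n = 54). For the level at 0 h the correlation over 157 coding members was 0.11, for the span of the gene 0.09 and for the distance to the nearest Zfp gene 0.26, which was 0.18 within KRAB members and 0.12 within those without. The median distance was 1120 kb in the down-regulated members and 2309 kb in those not called.

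Solitary members with known roles were read by role. Of 17 with roles in neural development, 2 were down-regulated and none up-regulated at 2 h, and 1 was down- and 3 were up-regulated at 6 h against 0 h, with medians of 0.01 and 0.91. These are 11.8% and 0% at 2 h, against 5.94% and 3.62% of all genes, and 5.88% and 17.6% at 6 h, against 10.2% and 9.1%. Zfp462, a chromatin-linked regulator, fell from 4012 and 4004 normalised counts to 1729 and 1645, by 1.25 ± 0.10 on the log2 scale, and had 2612 and 2540 at 6 h. Zfp804a, the mouse counterpart of a gene at a schizophrenia risk locus, had 591 and 556, then 806 and 595, then 2052 and 1731, and was 1.72 ± 0.19 above 0 h at 6 h. Zfp609, which acts in cortical neuron development, reached 6417 and 6131 from 2659 and 2642, by 1.24 ± 0.11. Zfp407 stood at 1.05 ± 0.13 at 6 h, and at 0.99 without 6 h replicate 1. With scaling by library totals Zfp609 and Zfp407 were at 1.00 and 0.80 and were not called.

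Zfp423, which guides cerebellar and olfactory development, took the opposite course. It went from 194 and 217 normalised counts to 290 and 306 at 2 h and 88.8 and 76.4 at 6 h, and fell from 2 h to 6 h by 1.85 ± 0.23 on the log2 scale. Its related gene Zfp521 had 493 and 469, then 605 and 560, then 384 and 367, and was not called in any comparison. Zfp536, a repressor of neuronal differentiation, went from 338 and 392 at 2 h to 1003 and 1062 at 6 h, a rise of 1.50 ± 0.16. The X-linked gene Zfp711 had 2845 and 1056 at 2 h, against 1215 and 804 at 0 h, and was not called.

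Of 12 tested members with roles in transcription and chromatin, Zfp217 and Zfp687 were down-regulated (16.7%, against 5.94% of all genes) and Zfp131 was up-regulated (8.33%, against 3.62%) at 2 h. The calls of Zfp217 (−1.05 ± 0.36) and Zfp687 (−1.01 ± 0.16) lay at the threshold. Both were lost without 0 h replicate 1 or without 2 h replicate 1, and that of Zfp217 also without 0 h replicate 2 or either 6 h library. With the GC correction neither was called, with Zfp687 at −0.97. Zfp143, a factor that binds many promoters, had 294 and 283 normalised counts, then 298 and 325, then 980 and 958, with 1.75 ± 0.15 at 6 h. It overlaps genes on the opposite strand. Zfp42, a gene of pluripotent cells, had no count.

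Of 11 members that handle RNA or proteins, 2 were down-regulated at 2 h, which is 18.2% against 5.94% of all genes and rests on few genes. Zfp451, a SUMO ligase, had 3587 and 3337, then 1854 and 1055, then 4629 and 4736, with −1.25 ± 0.24 at 2 h and −0.92 when 2 h replicate 2 was left out. Zfp593, linked to ribosome assembly, stood at −1.09 ± 0.29, and at −0.83 without 2 h replicate 1, and its call was also lost without 0 h replicate 2. Zfp207 rose to 8759 and 8475 at 6 h from 3462 and 3239, by 1.36 ± 0.11. Zfp326, a splicing-linked protein, fell to 521 and 472 at 6 h from 1204 and 1054, by 1.18 ± 0.19. Zfp598, the ubiquitin ligase of collided ribosomes, stood at 0.61 ± 0.17 at 2 h, short of 2-fold.

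Zfp36 encodes tristetraprolin, which binds AU-rich elements and speeds mRNA decay, and is an immediate early gene in many cells. Here it was low, with 16.9 and 14.3 normalised counts, then 24 and 36.2, then 46 and 43. Its value at 6 h was 1.51 ± 0.52 (adjusted p = 0.0095), and that call was lost when any library of 0 h or 6 h was left out. Zfp36l1 and Zfp36l2 were not called in any comparison, and Zfp36l3 had no count. Zfp57, a KRAB protein that keeps methylation at imprinted regions, had 1499 and 1543, then 1344 and 1297, then 1261 and 1142, and was not called. Zfp932, its companion on the list of silencing factors, was not called either.

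**Figure D5:**
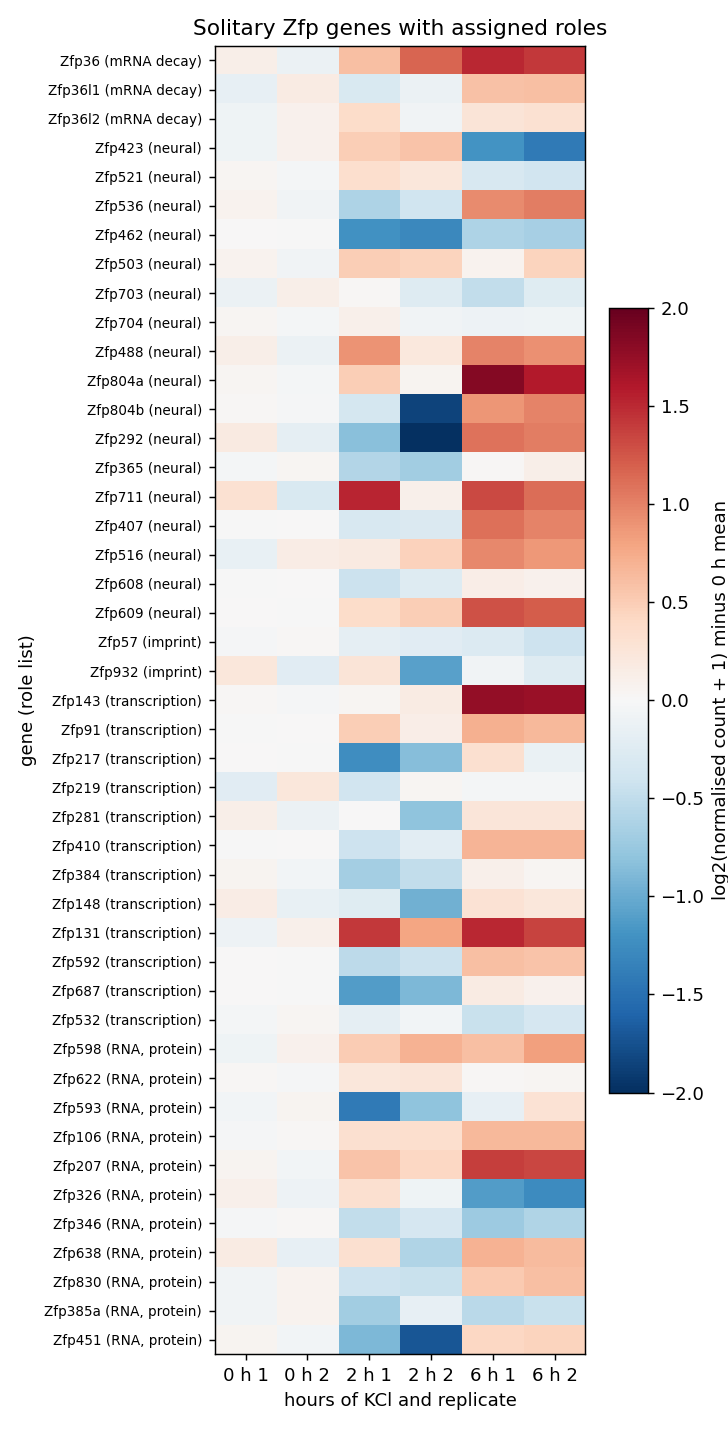
Log2(normalised count + 1) minus the 0 h mean, by library (x axis), for the solitary Zfp genes with listed roles and a count (y axis); blue is lower and red higher, and the colour scale stops at 2 in either direction. Zfp462 is blue in both 2 h libraries, and Zfp804a, Zfp143 and Zfp207 are red in both 6 h libraries.

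The co-repressor genes through which KRAB proteins act were listed as well. Of 24 tested, 3 were down-regulated and none up-regulated at 2 h, with a median of −0.17, and 5 were up-regulated from 2 h to 6 h. These are 12.5% against 5.94% of all genes, and 20.8% against 10.1%. Of the 5, Atf7ip and Morc3 kept that call whichever library was left out. Smarcad1 was at 0.99 without 2 h replicate 2, Dnmt3b lost its call without any library but 2 h replicate 1, and Atf7ip2, with at most 3.99 normalised counts at 2 h, had no adjusted p without either 6 h library. Trim28 had 5941 and 5921 normalised counts, then 7721 and 8770, then 8962 and 8567, with 0.48 ± 0.11 at 2 h. Setdb1 stood at −0.42 ± 0.13. The 3 that were down-regulated were Dnmt3b, Smarcad1 and Morc3, at −2.99 ± 0.71, −1.02 ± 0.21 and −1.07 ± 0.19. Smarcad1 and Morc3 were at −0.93 each with the GC correction and at −0.77 and −0.87 without 2 h replicate 2, and Smarcad1 was at −0.96 without 0 h replicate 1, none of them called. Dnmt3b was not called without 0 h replicate 1 (adjusted p = 0.0633).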

How the data were processed

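Poly(A) RNA-seq of 6 libraries, 2 at each of 3 times, was analysed. The study describes the replicates as biological. The authors trimmed reads and mapped them to mm10. The submitters' processing notes name RSEM 1.3.0 and Bowtie2 2.2.9. Strand setting and annotation release are not given in the sources used here. The expected counts deposited by the authors are not normalized and need not be whole, since RSEM shares ambiguous reads among genes. The TPM values deposited by the authors are per length and scaled to a fixed total. The FPKM values deposited by the authors were not used, nor were the deposited effective lengths and lengths. The bisulfite libraries were not analysed here.

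Genes were matched to GENCODE M21 on GRCm38, giving 42462 symbols and 42548 positions. These members were taken as a set, and the gene lists and tests chosen, with earlier results of these data known, although the rule for members reads no expression value. Gene starts are the lower coordinates. KRAB boxes were found with a profile of 170 windows of 40 residues (E at most 1e-05, pyhmmer 0.12.3).

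Rounded counts of 22515 genes were fitted with DESeq2 1.42.0 in R 4.3.3, with the group as the only term, size factors by the median of ratios, Wald tests, log2 fold changes without shrinkage and Benjamini-Hochberg adjustment over all genes kept by independent filtering. Alternatives included edgeR 4.0.16 (quasi-likelihood), other scalings and filters, a GC correction, distances of 50 kb and 200 kb and leaving out each library, which leaves 1 library at that time, assumed to vary like the others. Reads carry no molecular identifiers. Members named were those of role lists, the 8 lowest and 5 highest called per comparison among members whose mean count reached 100 and whose libraries did not overlap, the 5 highest by TPM at 0 h, the neighbours of the 100 kb limit and the co-repressor genes called; other members named were chosen after their values were seen.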

Additional observations from a re-analysis of the deposited data

How the results depend on the processing

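No named call changed sign under any alternative run, and the medians at 2 h and from 2 h to 6 h kept their direction; the median at 6 h against 0 h, 0.05, did not. A test against a 2-fold change left 19 members lower (11.3%, against 1.27% of all genes) and 1 higher (0.595%, against 1%) at 2 h. At 6 h against 0 h it left 5 lower (3.11%, against 2.59%) and 4 higher (2.48%, against 2.79%), close to the shares of all genes. At 6 h against 2 h it left 1 lower (0.606%, against 1.21%) and 15 higher (9.09%, against 2.08%), and 9 were lower then higher. Lower at 2 h were 12 with KRAB, 7 without and 53 in clusters. With no fold threshold, 83 members were lower (49.7%, against 14.2% of all genes) and 9 higher (5.39%, against 12.3%) at 2 h. At 6 h against 0 h, 38 were lower (22.8%, against 21.7%) and 37 higher (22.2%, against 23.7%), close to the shares of all genes. At 6 h against 2 h, 17 were lower (10.3%, against 21.2%) and 95 higher (57.6%, against 24.1%). In this setting 66 were lower then higher, and 45 without KRAB were lower at 2 h. Scaling by library totals moved the median to −0.77 at 2 h and −0.20 at 6 h against 0 h, and put the median of all genes at −0.157 and −0.253. With a limit of 50 kb, 43 KRAB members were lower at 2 h, and with 200 kb the median at 2 h was −0.48. Leaving out 1 library at a time gave medians of −0.82 to −0.53 at 2 h and 0.68 to 0.84 at 6 h against 2 h, and 1 to 3 members higher at 2 h, where the 1 was without 2 h replicate 1.

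Replicate numbers marked no shared source in the labels. Deviations of libraries with the same number correlated at 0.281, −0.00226 and 0.152 between times. With the replicate block 57 members were lower at 2 h (34.5%, against 5.89% of all genes) and 42 lower then higher. With the block and the GC correction it was 50 (30.3%, against 5.19%) and 33, while 16 were higher at 6 h against 0 h (9.58%, against 10.1%). Under edgeR 56 were lower at 2 h (35.2%, against 7.1% of all genes), of which 55 were called in both. Of 80 calls of named genes, edgeR and TMM factors kept all 80, library totals 76, the GC correction 72, leaving out 1 library 70 to 74 (2 calls had no adjusted p without 6 h replicate 1, and 1 without 6 h replicate 2), and the test against a 2-fold change 31. The 2 libraries per time limit the precision of low genes.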
